A study of Mus musculus with 6 samples.

Results

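Transforming growth factor-β (TGF-β) signalling begins with a ligand that leaves the cell in an inactive form. The ligand precursor is cut in the cell, but the released propeptide, called latency-associated peptide, stays wrapped around the growth factor. Latent TGF-β binding proteins (LTBPs) tether this complex to fibrillin microfibrils and fibronectin, from which integrins, thrombospondin or proteases can free the ligand to bind its receptor kinases and, through them, SMAD transcription factors. In fibroblasts the pathway is known for driving matrix production and contractile genes, and for opposing the mesenchymal-to-epithelial transition that accompanies reprogramming. The 10 genes described here encode the core of the system outside the nucleus: the 3 ligands *Tgfb1*, *Tgfb2* and *Tgfb3*, the 3 receptors *Tgfbr1*, *Tgfbr2* and *Tgfbr3*, and the 4 LTBPs *Ltbp1*, *Ltbp2*, *Ltbp3* and *Ltbp4*. They were chosen by name among the 54331 genes of the deposited table, and each was found once and passed the filter on low values.

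The libraries were made from mouse embryonic fibroblasts (MEFs) of male Oct4-EGFP transgenic embryos at E13.5 on a mixed C57BL/6, DBA/2 and ICR background. All cells were transduced by retrovirus with Oct4, Sox2 and Klf4 together with AKT-MER, in which myristoylated AKT is joined to an altered estrogen receptor and is active only in the presence of 4-hydroxytamoxifen (4OHT), the receptor's ligand. From 3 dpi (days post infection), 3 wells received 1 µM 4OHT (OSKA + 4OHT) and 3 wells received ethanol alone (OSKA − 4OHT), and RNA was taken at 10 dpi. The comparison asks how AKT activation alters gene expression in bulk cells during reprogramming. The fibroblasts came from several pooled embryos and were infected before they were split into wells, so the p-values measure only the spread between wells. No library of cells given 4OHT without AKT-MER was analysed here, and an effect of 4OHT itself cannot be told apart from one of the activated kinase. In bulk RNA, fewer cells of a type and less RNA per cell cannot be told apart either.

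Levels are given in TPM, a unit that divides reads by transcript length and sets every well to a total of 1000000, so the sequencing depth is not kept. The values of single wells are listed in the order of replicates 1, 2 and 3. Genes above 0 numbered from 15814 to 17692 per OSKA − 4OHT well and from 17578 to 18230 per OSKA + 4OHT well. Groups were compared with limma on log2(TPM + 0.5) for each of the 15382 genes at a mean of 1 TPM or more, and a gene was called where p, adjusted by the Benjamini-Hochberg method over all of them, was under 0.05. Fold changes are on this scale, on which the change of a low gene is understated. *Akt1*, the gene fused in AKT-MER, was at 749.3, 750.6 and 653.3 TPM in the OSKA − 4OHT wells and at 621.4, 641.6 and 448.4 TPM in the OSKA + 4OHT wells, and it was not called (adjusted p = 0.286, limma with Benjamini-Hochberg adjustment).

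The latency proteins held the clearest differences of the system. *Ltbp2* and *Ltbp4* fell in OSKA + 4OHT cells, with log2 fold changes of -3.48 and -2.80, and they were the called genes among the 10. *Ltbp1* went the other way, with higher values in all OSKA + 4OHT wells, but did not pass the test. *Tgfb1*, *Tgfb3* and *Ltbp3* were lower in all OSKA + 4OHT wells than in any OSKA − 4OHT well and did not pass the test either, while the wells of *Tgfb2* and of all 3 receptors overlapped. Thus 2 of the 10 genes were called, both lower, where 1.97% of all tested genes were called lower and 5.49% were called in either direction. The groups did not overlap for 6 of the 10, with 5 lower and 1 higher, against 28.2% of all tested genes (10.0% lower and 18.1% higher). The median log2 fold change was -0.54 over the 10 genes and 0.14 over all tested genes. When the wells were rescaled by trimmed means of log ratios, the median over all tested genes moved by -0.12, and the calls over all genes moved from 542 higher and 303 lower to 456 higher and 480 lower, but *Ltbp2* and *Ltbp4* remained the called genes among the 10 and none of the 10 changed direction. With a well left out, the number called was 2 without OSKA − 4OHT replicate 1, 1 without OSKA − 4OHT replicate 3, and 0 without OSKA − 4OHT replicate 2 or any one of the OSKA + 4OHT replicates. The number was also 0 when the replicate number was fitted as a block, although these numbers were not taken to pair the wells.

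**Figure D1:**
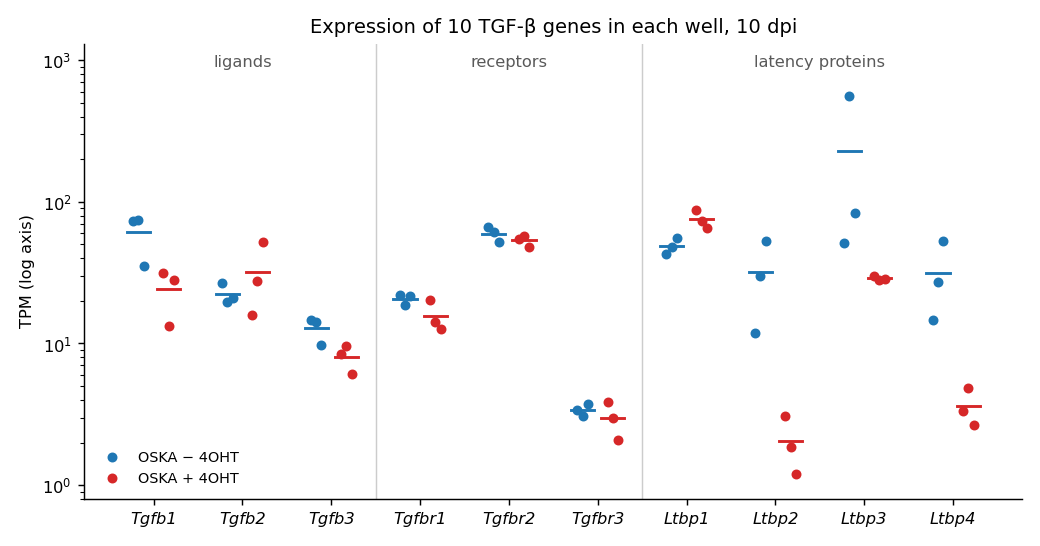
Expression in TPM (log axis) of the 10 genes in each well at 10 dpi, with OSKA − 4OHT wells in blue, OSKA + 4OHT wells in red and a bar at each group mean (n = 3). The groups are far apart for *Ltbp2* and *Ltbp4*, a single OSKA − 4OHT well of *Ltbp3* stands at 555.1 TPM, and the receptors overlap.

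*Tgfb1*, the ligand most studied in fibroblast activation, lies on chromosome 7 (GRCm38, 25687002 to 25705077, plus strand). It was at 73.5, 74.7 and 35.0 TPM in the OSKA − 4OHT wells and at 31.4, 13.3 and 28.1 TPM in the OSKA + 4OHT wells. All OSKA + 4OHT wells were below all OSKA − 4OHT wells, although OSKA − 4OHT replicate 3 was closer to the treated wells than to the other two. The mean was 61.1 ± 22.6 TPM without 4OHT and 24.3 ± 9.62 TPM with it (SD, n = 3 each). This gave a log2 fold change of -1.32 ± 0.432 (standard error) and an adjusted p of 0.145 by limma with Benjamini-Hochberg adjustment.

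*Tgfb2*, the ligand that relies most on the co-receptor betaglycan to reach the signalling receptors, lies on chromosome 1 (186622792 to 186705989, minus strand). It was at 26.5, 19.8 and 20.8 TPM in the OSKA − 4OHT wells, and at 15.8, 27.8 and 51.8 TPM in the OSKA + 4OHT wells. The treated wells spanned both sides of the untreated ones and differed 3.27-fold among themselves, against 1.34-fold among the untreated wells. The difference of 0.35 ± 0.421 on the log2 scale (standard error, with an adjusted p of 0.673 by limma with Benjamini-Hochberg adjustment) became -0.08 without OSKA + 4OHT replicate 3.

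*Tgfb3*, the third ligand, lies on chromosome 12 (86056745 to 86079041, minus strand), where it overlaps *Ttll5* on the opposite strand. It was at 14.7, 14.3 and 9.72 TPM in the OSKA − 4OHT wells and at 8.36, 9.58 and 6.10 TPM in the OSKA + 4OHT wells. The groups did not overlap, but the highest treated well and the lowest untreated well were nearly level. The difference was -0.65 ± 0.268 on the log2 scale (standard error) with an adjusted p of 0.230 by limma with Benjamini-Hochberg adjustment.

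The 3 ligands added up to 114.7, 108.7 and 65.5 TPM in the OSKA − 4OHT wells and to 55.6, 50.7 and 85.9 TPM in the OSKA + 4OHT wells, so the summed level overlapped between the groups. *Tgfb1* made up 64.1, 68.7 and 53.4% of this sum without 4OHT and 56.5, 26.3 and 32.7% with it. *Tgfb2* made up 23.1, 18.2 and 31.8% without 4OHT and 28.4, 54.8 and 60.3% with it. *Tgfb2* was thus the most abundant ligand transcript in OSKA + 4OHT replicates 2 and 3, and *Tgfb1* in the other 4 wells. The wells of the groups overlapped for both shares, and neither difference passed the test (p = 0.2 for each, exact two-sided permutation test, where 3 wells against 3 cannot give less than 0.1). The share of *Tgfb3* was 13.6 ± 1.10% and 13.7 ± 6.01% (SD, n = 3 each), a difference of 0.0968 percentage points.

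*Tgfbr2*, the kinase that binds the ligand and phosphorylates its partner *Tgfbr1*, lies on chromosome 9 (116084293 to 116175360, minus strand). It was at 66.0, 61.0 and 51.7 TPM in the OSKA − 4OHT wells and at 55.0, 57.4 and 48.1 TPM in the OSKA + 4OHT wells, and the wells of the groups were interleaved. Its log2 fold change was -0.15, with a 95% interval from -0.53 to 0.23, the narrowest of the 10 genes.

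*Tgfbr1*, the kinase that phosphorylates the receptor-regulated SMADs, lies on chromosome 4 (47353222 to 47414931, plus strand). It was at 22.0, 18.7 and 21.6 TPM in the OSKA − 4OHT wells and at 20.1, 14.1 and 12.8 TPM in the OSKA + 4OHT wells. OSKA + 4OHT replicate 1 lay inside the untreated range and the other two treated wells lay below it. A log2 fold change of -0.42 was found, with a 95% interval from -0.96 to 0.12.

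*Tgfbr3* encodes betaglycan, a membrane proteoglycan without a kinase that presents the ligand, and lies on chromosome 5 (107106570 to 107289629, minus strand). It was the lowest of the receptors in every well, between 3.09 and 3.76 TPM without 4OHT and between 2.08 and 3.89 TPM with it. Its log2 fold change was -0.20, with a 95% interval from -1.0 to 0.59. Over 306 of the 6087 bases of its longest transcript, *Tgfbr3* is 99.3% identical to *Gm43422*, which is annotated inside it on the same strand, so a part of its reads is uncertain. None of the 3 receptors was called, and adjusted p ranged from 0.347 for *Tgfbr1* to 0.762 for *Tgfbr3* (limma with Benjamini-Hochberg adjustment). There were 2.89 ± 0.450 transcripts of *Tgfbr2* for each of *Tgfbr1* without 4OHT and 3.53 ± 0.702 with it (SD, n = 3 each, p = 0.3 in an exact two-sided permutation test).

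**Figure D2:**
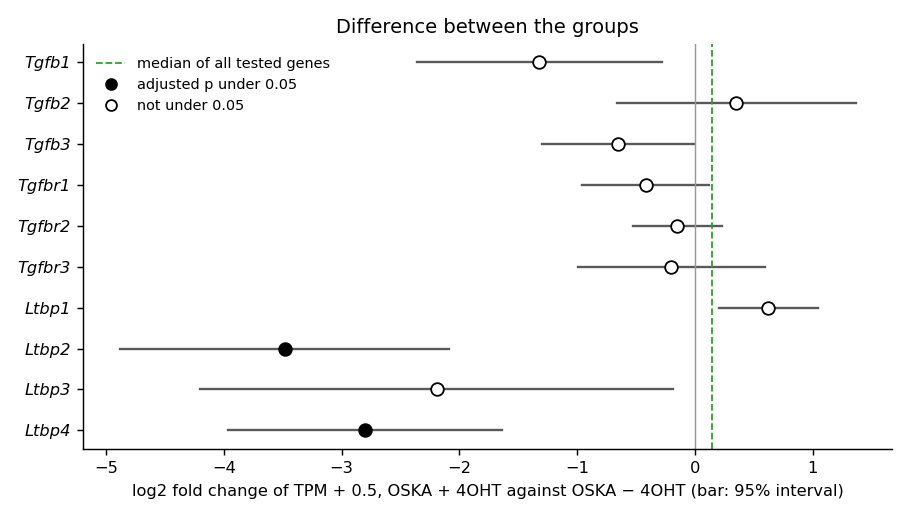
Log2 fold change of TPM + 0.5 for each gene, OSKA + 4OHT against OSKA − 4OHT (3 wells each), with its 95% interval as a bar and the median of all tested genes as a dashed line. Filled points have a limma adjusted p under 0.05 (*Ltbp2* and *Ltbp4*), and the interval of *Tgfbr2* is the narrowest.

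The LTBPs share a backbone of epidermal growth factor-like and cysteine-rich repeats but differ in what they carry. LTBP-1 and LTBP-3 bind the latent complex of every TGF-β ligand, LTBP-4 binds that of TGF-β1 weakly, and LTBP-2 does not bind latent TGF-β and is known mainly as a microfibril protein. *Ltbp2* lies on chromosome 12 (84783212 to 84876532, minus strand) and overlaps the antisense gene *D030025P21Rik*, which was at most 0.549 TPM in any well. It was at 11.8, 30.2 and 53.3 TPM in the OSKA − 4OHT wells and at 3.10, 1.87 and 1.20 TPM in the OSKA + 4OHT wells. Every treated well lay far below every untreated well, and the lowest untreated well, replicate 1, was 4.51-fold below the highest. The mean without 4OHT was 15.4-fold that with 4OHT, and the difference on the log2 scale was -3.48 ± 0.580 (standard error; adjusted p = 0.0262 by limma with Benjamini-Hochberg adjustment). The call did not hold in most fits that left out a well: the adjusted p was 0.0208 without OSKA − 4OHT replicate 1 but from 0.0568 to 0.0965 when OSKA − 4OHT replicate 2 or 3 or any one of the OSKA + 4OHT replicates was left out (limma with Benjamini-Hochberg adjustment).

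*Ltbp4* lies on chromosome 7 (27305136 to 27337692, minus strand). It was at 14.6, 27.0 and 52.8 TPM in the OSKA − 4OHT wells, nearly the same values as *Ltbp2* well by well. In the OSKA + 4OHT wells it was at 3.36, 4.85 and 2.68 TPM, again below every untreated well. The mean without 4OHT was 8.67-fold that with 4OHT, and the difference on the log2 scale was -2.80 ± 0.483 (standard error; adjusted p = 0.0288 by limma with Benjamini-Hochberg adjustment). The adjusted p was 0.0270 and 0.0496 without OSKA − 4OHT replicate 1 and 3, 0.0928 without OSKA − 4OHT replicate 2, and from 0.0810 to 0.106 without any one of the OSKA + 4OHT replicates (limma with Benjamini-Hochberg adjustment).

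*Ltbp1* lies on chromosome 17 (75005568 to 75392512, plus strand). It was at 42.6, 47.9 and 55.9 TPM in the OSKA − 4OHT wells and at 87.0, 73.6 and 65.6 TPM in the OSKA + 4OHT wells. It was the gene of the 10 whose treated wells all lay above the untreated ones. On the log2 scale the difference was 0.62 ± 0.175 (standard error; unadjusted p = 0.0108, adjusted p = 0.103 by limma with Benjamini-Hochberg adjustment), and it kept its direction in all 16 alternative settings without being called in any.

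*Ltbp3* lies on chromosome 19 (5740904 to 5758532, plus strand). It was at 51.1, 555.1 and 83.7 TPM in the OSKA − 4OHT wells and at 30.0, 28.2 and 28.4 TPM in the OSKA + 4OHT wells. OSKA − 4OHT replicate 2 was 6.63-fold above the next well, whereas the treated wells differed 1.06-fold at most. The difference of -2.19 ± 0.834 on the log2 scale (standard error, with an adjusted p of 0.201 by limma with Benjamini-Hochberg adjustment) was -1.17 without that well, with an adjusted p of 0.0967. The mean of the other two untreated wells, 67.4 TPM, was 2.34-fold the mean of the treated wells. The libraries were stranded, but whether strand was used in quantification is not given in the sources used here, so reads of overlapping genes on opposite strands (as at *Tgfb2*, *Tgfb3* and *Ltbp2*) may not have been told apart. Such single high values were not limited to *Ltbp3*: of 11035 genes at a mean of 5 TPM or more, 336 (3.04%) had a well at least 5-fold above the next, and in 51 of them it was OSKA − 4OHT replicate 2. The table gives 1 value per gene, while 12 transcripts of *Ltbp3* from 156 to 5729 bases are annotated, and which of them carried the high value was not tested.

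The spread between untreated wells set *Ltbp2*, *Ltbp3* and *Ltbp4* apart from the rest. Their coefficient of variation was 65.5, 123 and 62.1% in OSKA − 4OHT cells, where the median of 14297 genes was 26.3% and the upper quartile 51.9%. That of *Ltbp1* was 13.7%. In OSKA + 4OHT cells the coefficients of *Ltbp1* to *Ltbp4* were 14.3, 46.8, 3.47 and 30.7%, against a median of 23.5% over 14596 genes.

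*Ltbp1* made up 35.5, 7.26 and 22.7% of the summed TPM of the 4 genes in the OSKA − 4OHT wells and 70.5, 67.8 and 67.1% in the OSKA + 4OHT wells. The share was thus 21.8 ± 14.1% without 4OHT and 68.5 ± 1.78% with it (SD, n = 3 each), a difference of 46.6 percentage points with the groups fully apart (p = 0.1, exact two-sided permutation test, the smallest it can give). With *Ltbp3* taken out of the sum, since 1 well dominates it, *Ltbp1* made up 61.8, 45.6 and 34.5% without 4OHT and 93.1, 91.6 and 94.4% with it, a difference of 45.8 percentage points. The shares of *Ltbp2* and *Ltbp3* in the sum of all 4 were also apart (p = 0.1 for each, exact two-sided permutation test), whereas that of *Ltbp4* overlapped, with 12.1, 4.09 and 21.5% without 4OHT and 2.72, 4.47 and 2.73% with it (p = 0.2, the same test, exact). With *Ltbp3* out of the sum the share of *Ltbp4* was apart as well, with 21.1, 25.7 and 32.6% without 4OHT and 3.59, 6.04 and 3.85% with it (p = 0.1, the same test, exact). The sum of *Ltbp2*, *Ltbp3* and *Ltbp4* was 77.5, 612.2 and 189.9 TPM without 4OHT and 36.5, 34.9 and 32.2 TPM with it. The sum of all 4 LTBPs overlapped between the groups (120.1, 660.1 and 245.7 TPM against 123.4, 108.5 and 97.9 TPM).

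**Figure D3:**
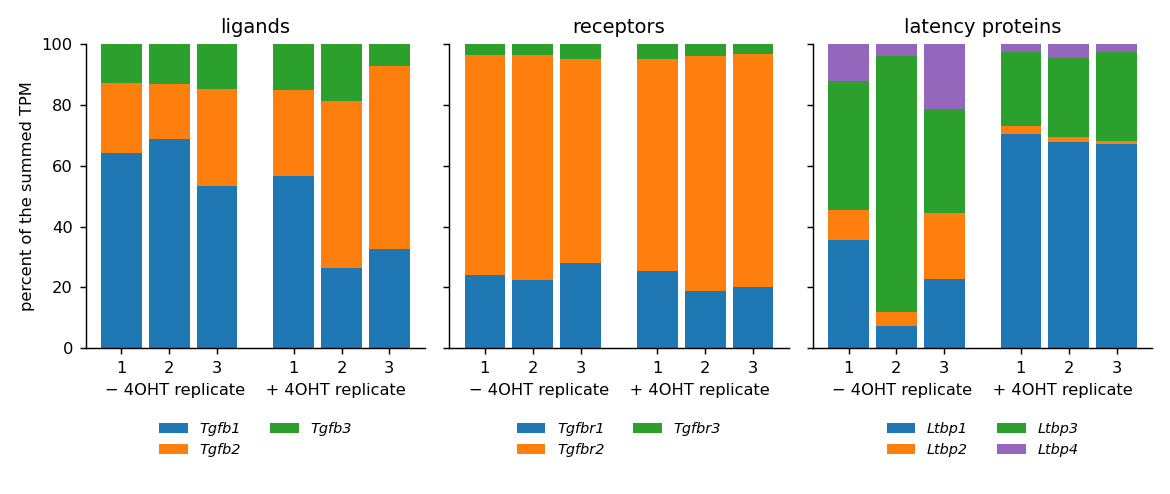
Share of each gene (percent) in the summed TPM of the ligands, the receptors and the latency proteins, per well. *Ltbp1* takes 67.1 to 70.5% of the LTBP sum in the OSKA + 4OHT wells and at most 35.5% in the OSKA − 4OHT wells, while the receptor shares overlap between the groups.

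In OSKA − 4OHT cells the order of mean levels, in TPM, was *Ltbp3*, *Tgfb1*, *Tgfbr2*, *Ltbp1*, *Ltbp2*, *Ltbp4*, *Tgfb2*, *Tgfbr1*, *Tgfb3* and *Tgfbr3*. Neighbours in this order overlapped between wells down to *Tgfbr1*, and only the steps from *Tgfbr1* to *Tgfb3* and from *Tgfb3* to *Tgfbr3* were larger than the spread. In OSKA + 4OHT cells the order was *Ltbp1*, *Tgfbr2*, *Tgfb2*, *Ltbp3*, *Tgfb1*, *Tgfbr1*, *Tgfb3*, *Ltbp4*, *Tgfbr3* and *Ltbp2*, and *Ltbp1* stood above *Tgfbr2* in every pair of wells. The steps from *Tgfbr1* to *Tgfb3* and from *Tgfb3* to *Ltbp4* were also free of overlap. Among all tested genes, the mean level of *Ltbp4* was at the 72.8 percentile without 4OHT and at the 22.7 percentile with it, whereas *Tgfbr2* was at the 84.9 and the 82.0 percentile.

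The sequences upstream of the start sites are shown for *Ltbp2* and *Ltbp4*, which fell, and for *Ltbp1*, which did not. They are RefSeq promoter windows of GRCm38.p6, cut to the bases before the outermost annotated start and written 5′ to 3′ on the strand of the gene. Capitals mark the letters of any of 5 searched motifs on either strand: CAGACA (SMAD), GTAAACA (forkhead), GGAATG (TEAD), TGACTCA (AP-1) and GGGCGG (SP/KLF). No 2 of the motifs overlapped in these stretches. The stretches lie at chr12:84876533-84876741 for *Ltbp2* (minus strand), chr7:27337693-27337862 for *Ltbp4* (minus strand) and chr17:75005279-75005528 for *Ltbp1* (plus strand).
Ltbp2: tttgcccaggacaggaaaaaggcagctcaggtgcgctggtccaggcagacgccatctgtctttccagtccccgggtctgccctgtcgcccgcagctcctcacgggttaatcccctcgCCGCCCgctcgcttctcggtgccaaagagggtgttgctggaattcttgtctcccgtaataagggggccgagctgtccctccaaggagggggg
Ltbp4: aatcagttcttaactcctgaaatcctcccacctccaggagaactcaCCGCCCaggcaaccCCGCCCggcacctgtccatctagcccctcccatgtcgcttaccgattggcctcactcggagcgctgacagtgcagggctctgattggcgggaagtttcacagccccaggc
Ltbp1: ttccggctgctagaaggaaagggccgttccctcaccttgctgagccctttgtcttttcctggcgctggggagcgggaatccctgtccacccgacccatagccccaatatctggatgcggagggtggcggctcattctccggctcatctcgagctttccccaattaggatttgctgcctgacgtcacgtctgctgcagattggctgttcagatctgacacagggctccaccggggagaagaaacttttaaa

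The stretch of *Ltbp2* held the SP/KLF letters 1 time and that of *Ltbp4* 2 times, all read from the opposite strand as CCGCCC, and the stretch of *Ltbp1* held none of the 5 motifs. Over whole windows of 300 bases, which are longer than the stretches shown, 250 before and 50 after the start, the SP/KLF letters occurred in 35.7% of 32851 windows, the SMAD letters in 21%, the TEAD letters in 14.7%, the AP-1 letters in 5.20% and the forkhead letters in 3.65%. RefSeq windows were matched for 8 of the 10 genes, 12 windows in all. The SMAD letters were found in windows of *Tgfb2* and *Ltbp3* and at an inner start of *Tgfbr1* and *Ltbp1*, the AP-1 letters in that of *Ltbp3*, and the forkhead and TEAD letters in none. The SP/KLF letters occurred 6 times in the window of *Tgfb1*, 2 times in one of *Tgfbr1*, 2 times in that of *Ltbp2* and 3 to 9 times in those of *Ltbp4*, so they were found at genes that were called and at genes that were not. These matches describe letters and not binding.

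The other genes of the pathway were read from 6 lists with 98 genes, of which 89 were tested. Of these, 3 were called higher and 22 lower, where 3.52% and 1.97% of all tested genes were called. Of the 3 called higher, *Gdf3* and *Lefty2* passed the filter on low values only through the OSKA + 4OHT wells, so no conclusion is drawn from the higher count. The median log2 fold change of the 89 genes was -0.38. The number called depended on the wells: it was 25 with all wells, 11 when either of the first 2 OSKA + 4OHT wells was left out, 16 without OSKA − 4OHT replicate 2 and from 18 to 21 when any of the remaining wells was left out.

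Among proteins that release the ligand from its latent complex, 3 of 13 tested genes fell and none rose, with a median log2 fold change of -0.45. *Thbs1*, which encodes the matrix protein thrombospondin-1, was at 2225, 2233 and 1833 TPM in the OSKA − 4OHT wells and at 415.0, 392.3 and 362.3 TPM in the OSKA + 4OHT wells. It fell by 2.42 on the log2 scale (standard error 0.116, adjusted p = 0.00298, limma with Benjamini-Hochberg adjustment) and was called in all 16 alternative settings. *Itgav*, the αv integrin chain that binds the latency-associated peptide, went from 129.0 ± 8.32 to 68.3 ± 7.71 TPM (SD, n = 3 each), with an adjusted p of 0.0195 (limma with Benjamini-Hochberg adjustment) that ranged from 0.0496 to 0.0829 with a well left out. *Itgb1*, a partner chain of αv, was the other called gene, likewise called in 1 of those 6 fits.

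Among the co-receptors and receptor modulators, 1 of 8 rose, 2 fell and 5 were not called. *Nrp2*, which encodes neuropilin-2, was at 42.8, 42.9 and 39.9 TPM without 4OHT and at 91.4, 86.3 and 74.9 TPM with it, a log2 fold change of 0.99 (adjusted p = 0.0156, limma with Benjamini-Hochberg adjustment). *Cd109*, a membrane-anchored TGF-β co-receptor that limits signalling, went from 379.5 ± 19.2 to 246.9 ± 21.9 TPM. *Fkbp1a*, which encodes the protein that guards the type I receptor from leaky activation, went from 261.9 ± 16.0 to 180.1 ± 9.27 TPM (SD, n = 3 each). The calls of *Cd109* and *Fkbp1a* were lost in all 6 fits without a well, and that of *Nrp2* in 4 of them.

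Of 17 tested genes for microfibrils and matrix proteins that hold LTBPs and latent TGF-β, 5 fell, none rose and 12 were not called, with a median log2 fold change of -0.18. *Bgn*, which encodes the TGF-β-binding proteoglycan biglycan, was at 883.2, 1054 and 914.6 TPM without 4OHT and at 260.1, 275.1 and 258.1 TPM with it (log2 fold change -1.84, adjusted p = 0.00305, limma with Benjamini-Hochberg adjustment). *Eln*, the elastin gene, was at 22.7, 25.0 and 36.1 TPM without 4OHT and at 7.63, 7.97 and 8.18 TPM with it (log2 fold change -1.73, adjusted p = 0.0120, limma with Benjamini-Hochberg adjustment), and its call was lost in 2 of 6 fits without a well. The other called genes of the list were *Fbln2*, *Fbln5* and *Fn1*, which encode fibulin-2, the LTBP-binding fibulin-5 and fibronectin. The calls of *Fbln2* and *Fbln5* held in all 6 of these fits and that of *Fn1* was lost in 2. The fibrillin genes *Fbn1* and *Fbn2*, named after their values were seen because the LTBPs bind fibrillin, had log2 fold changes of -0.18 and 0.14 and were not called.

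Of 20 genes for SMAD transducers and regulators, 1 fell, none rose and 19 were not called. *Skil*, which encodes the SMAD corepressor SnoN and is itself induced by the pathway, was at 43.8, 52.0 and 64.4 TPM without 4OHT and at 17.6, 19.0 and 16.5 TPM with it. It fell by 1.55 on the log2 scale (standard error 0.191, adjusted p = 0.0110, limma with Benjamini-Hochberg adjustment), a call lost in 2 of 6 fits without a well.

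Of 20 genes known to be induced by TGF-β in fibroblasts, 10 fell, none rose and 10 were not called, and the median log2 fold change was -1.05. *Tagln*, which encodes the actin-binding protein transgelin and overlaps the antisense gene *Gm48529*, fell by 3.27 on the log2 scale. *Acta2*, the gene of smooth muscle actin, was at 703.3, 684.9 and 568.4 TPM in the OSKA − 4OHT wells and at 111.1, 136.1 and 100.8 TPM in the OSKA + 4OHT wells. It fell by 2.49 on the log2 scale (standard error 0.156, adjusted p = 0.00328, limma with Benjamini-Hochberg adjustment) and was called in all 16 alternative settings. Other called genes were *Cnn1*, *Lox*, *Tnc*, *Ccn2*, *Tpm1*, *Cdkn2b* and *Col1a2*. The calls of *Cnn1*, *Tpm1* and *Col1a2* were lost in 5 of 6 fits without a well and that of *Cdkn2b* in 3. *Tgfbi*, named after its values were seen because it went against the list, had a log2 fold change of 0.84 and an adjusted p of 0.0607 (limma with Benjamini-Hochberg adjustment). These genes also respond to other signals, and *Acta2*, *Tagln* and *Cnn1* are counted again among the smooth muscle markers.

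In the activin and nodal branch, whose ligands signal through related receptors to the same SMADs, 2 of 11 tested genes were called higher and 1 lower. Those called higher, *Gdf3* and *Lefty2*, had a mean below 1 TPM in the OSKA − 4OHT wells. They passed the filter on low values only through the OSKA + 4OHT wells, so no conclusion is drawn from their number. *Gdf3*, a nodal-related ligand of pluripotent cells, was at 0.556, 0.533 and 0.456 TPM without 4OHT and at 11.8, 13.3 and 7.25 TPM with it (log2 fold change 3.43, adjusted p = 0.00616, limma with Benjamini-Hochberg adjustment), a call lost in 2 of 6 fits without a well. *Lefty2*, a secreted nodal antagonist, was listed at 0 in all OSKA − 4OHT wells and at 3.05, 2.91 and 2.57 TPM in the OSKA + 4OHT wells, and its call was lost in all 6 fits without a well. It is 91.4% identical to *Lefty1* over 46.8% of its transcript, so reads may have been split between them. *Inhba*, which encodes the activin A subunit, was at 70.2, 69.4 and 69.4 TPM without 4OHT and at 24.2, 20.4 and 20.4 TPM with it (log2 fold change -1.67, adjusted p = 0.00392, limma with Benjamini-Hochberg adjustment). The median log2 fold change of the branch was -0.21, or -0.23 over the 10 genes without *Lefty2*.

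**Figure D4:**
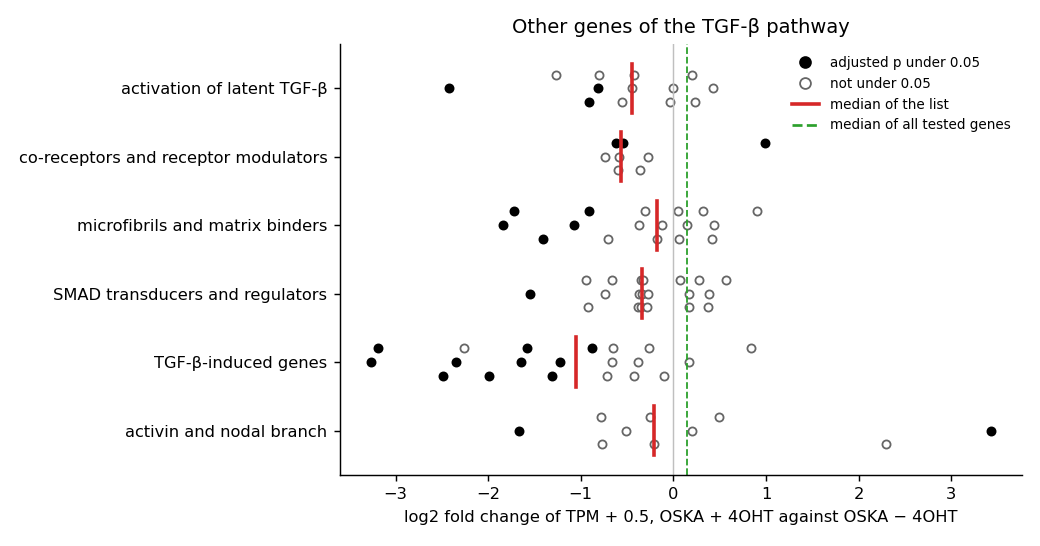
Log2 fold change of TPM + 0.5, OSKA + 4OHT against OSKA − 4OHT (3 wells each), for the tested genes of 6 pathway lists, with filled points for a limma adjusted p under 0.05, a red bar at the median of each list and a dashed line at the median of all tested genes. Each point is a gene, *Lefty2* is left out because it is listed at 0 in one group, and the list of TGF-β-induced genes has the lowest median, -1.05.

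Markers of cell types moved between the same groups, and their part in the differences above was not tested. The summed TPM of 8 fibroblast markers was 7820 to 9646 without 4OHT and 4662 to 5770 with it, with *Pdgfrb*, *Col1a2* and *S100a4* called lower and *Lum* called higher. Most of this sum was *Vim*, *S100a4*, *Col1a2* and *Col1a1*. Of the 8 log2 fold changes, 6 were negative and 2, those of *Lum* and *Thy1*, were positive. *Thy1* was at a mean of 179.4 TPM without 4OHT and 293 TPM with it, higher in all OSKA + 4OHT wells but not called. That of 7 epithelial markers was 54.3 to 139.5 TPM without 4OHT and 264.5 to 291.5 TPM with it, with *Cdh1*, *Epcam* and *Krt8* called higher. That of 8 pluripotent cell markers was 12.9 to 15.6 TPM without 4OHT and 37.2 to 43.0 TPM with it, with *Nanog*, *Zfp42* and *Tdgf1* called higher and *Utf1* and *Dppa4* listed at 0 in all OSKA − 4OHT wells. Of those called, *Nanog* and *Zfp42* passed the filter on low values only through the OSKA + 4OHT wells. The summed TPM of 6 smooth muscle markers was 891.6 to 1048 without 4OHT and 134.5 to 186.0 with it, with *Acta2*, *Tagln* and *Cnn1* called lower. The 7 macrophage markers summed to 122.2 to 154.4 TPM without 4OHT and 79.4 to 89.1 TPM with it, with *Lyz2* called lower of the 7. Most of this sum was *Lyz2*, at a mean of 95.2 TPM without 4OHT and 51.8 TPM with it. Of the 7 log2 fold changes, 6 were negative and 1, that of *Cd68*, was positive. The groups did not overlap for 2 of the 7, both lower, against 28.2% of all tested genes (10.0% lower). No conclusion is drawn from this count. The 6 endothelial markers summed to 21.8 to 28.9 TPM without 4OHT and 28.1 to 37.6 TPM with it, with *Emcn* listed at 0 in all OSKA + 4OHT wells. Only 2 of the 6 passed the filter on low values and were tested, and neither was called.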

How the data were processed

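The authors trimmed 50-base single-end reads of stranded polyA libraries with Trim Galore and quantified them with Salmon. The versions and the annotation release are not given in the sources used here. They deposited TPM for each gene in each well. The table also holds the authors' own comparison with edgeR, namely a log2 fold change, a log2 mean level, an F score and a p-value, and these columns were not used. A count model such as theirs was not run on TPM. Symbols, positions and transcripts came from GENCODE M21 (GRCm38), matched by Ensembl identifier.

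Genes whose mean reached 1 TPM were fitted with limma 3.58.1 (R 4.3.3) on log2(TPM + 0.5) with a mean-variance trend and no block, and p was adjusted over all 15382 genes by the Benjamini-Hochberg method. On simulated data with 14674 genes, the fit recovered 42.9% of 49 genes changed by a log2 fold change of 2. It recovered 14.3% of 49 genes changed by 1, with 8 false calls. Fewer genes were changed there than were called in the real data, so these rates may not hold for the real data. A gene that was not called is not shown to be unchanged. Shares within each pool were compared with an exact permutation test over wells (scipy 1.17.1). Similar transcripts were searched with BLAST 2.17.0 at 90% identity or more. Apart from *Tgfbr3*, matches of the longest transcripts of the 10 genes to other genes were found for *Tgfb1* and *Tgfbr2* and covered at most 7.19% of a transcript.

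The genes, the lists, the motifs and the tests were chosen with earlier results of these data known. The genes named in the text are the 10 genes, the called genes with the 2 largest rises and the 2 largest falls in each pathway list, markers called or listed at 0 in a group, and *Akt1*, and the other called genes of a list are named without values. *Fbn1*, *Fbn2*, *Tgfbi* and the markers *Cd68*, *Thy1*, *Vim* and *Col1a1* were named outside this rule, after their values were seen. Some results under this rule are not reported here, and *Acta2* was given in place of one. A value of 0 is given as listed at 0, since 97 of 5708 genes with a median above 20 TPM were at 0 in at least 1 well. TPM carries no depth, so no counting interval is given. The alternatives were other pseudocounts, filters and scalings, no trend, the replicate number as a block and leaving out each well. A correction for GC content was added after the data were seen.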

Additional observations from a re-analysis of the deposited data

How the results depend on the processing

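The number of the 10 genes called, 2 with all wells, was 2 with either other pseudocount, either other filter, both scalings, no trend and the GC correction. It was 0 with the replicate number as a block and 0 with the GC correction and the block together, where the tested genes called fell to 31 higher and 16 lower with the block alone. It ranged from 0 to 2 with 1 well left out. The genes of the pathway lists called, 25 with all wells, numbered 8 with the replicate block, 10 with the GC correction and the block, and from 11 to 21 with 1 well left out. They numbered 19 with no trend, 31 with the scaling by trimmed means of log ratios and 33 with the GC correction alone. With the other pseudocounts, filters and scaling they numbered from 23 to 26. The replicate numbers were not taken to pair the wells, since no correlation was above 0.1: the deviations of same-numbered wells from their group means correlated across genes with r of 0.0235, 0.0341 and 0.0837, and 5 of the 6 wells correlated best with the well of their own number, the exception being OSKA + 4OHT replicate 1 (0.0327 with OSKA − 4OHT replicate 2), which is a hint from the data and not from the design. The cause of these differences in counts was not tested, and neither was the part of the smaller number of wells or residual degrees of freedom. The log2 fold change of *Tgfb2* reversed to -0.0785 without OSKA + 4OHT replicate 3 and ranged from -0.0785 to 0.762 with 1 well left out. The other 9 genes kept their direction in every setting run. With 1 well left out, the log2 fold change ranged from -0.388 to -0.00469 for *Tgfbr3* and from -0.248 to -0.0742 for *Tgfbr2*. *Tgfbr3* was not tested with a minimum mean of 5 TPM. The differences in the pool shares kept their direction with each well left out, except those of *Tgfb3* and *Tgfbr3*, which were near 0 with all wells (0.0968 and -0.0456 percentage points) and changed sign in 4 and 3 of the 6 fits. Over all tested genes, 845 were called, and without OSKA + 4OHT replicate 1 they numbered 112 higher and 63 lower. TPM keeps no sequencing depth, so what depth limits could not be given.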
